A study of Homo sapiens with 12 samples.

Results

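The mitochondrial ribosome translates the few messages that mitochondrial DNA encodes, all of them for subunits of the respiratory chain and ATP synthase. Its ribosomal RNAs are transcribed inside the organelle, but every protein subunit is made from a nuclear gene, translated in the cytosol and imported. The genes named MRPL and MRPS code for proteins of its large and its small subunit. Some of these proteins have homologs in bacterial ribosomes, and others are specific to mitochondria.

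These genes were taken from a table of counts per Ensembl gene as the protein-coding genes whose symbol is MRPL or MRPS followed by digits and an optional letter. This gave 78 genes of 58302 rows. Of them 51 belong to the large and 26 to the small subunit, with *MRPS30* (known as mL65) and *MRPS18A* (mL66) placed in the large subunit, where they sit. The remaining gene, *MRPS36*, carries the name but codes for a protein of the α-ketoglutarate dehydrogenase complex. All 78 passed the filter on low counts and were tested among 17849 genes.

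The samples were labelled as NCI-H520, a human lung squamous cell carcinoma line, transduced with a lentivirus that carries *L1-FGGY*, a LINE-1 chimeric transcript of *FGGY*, or an empty vector. RNA was sequenced from 12 libraries in 4 groups of 3, namely the empty vector control with 0.2% DMSO, *L1-FGGY* with 0.2% DMSO, *L1-FGGY* with 10 μM ML355 (an inhibitor of 12-lipoxygenase) and *L1-FGGY* with 450 μM NVR (a reverse transcriptase inhibitor). The control columns name only DMSO and were read as the control group by that name. The medium was exchanged 5 h after seeding, the length of treatment is not given, and the labels do not say whether the 3 libraries of a group came from separate cultures, so that p-values measure only the spread between these libraries.

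Depth ran from 16242082 to 27004768 counts per library. *FGGY* had 4782 to 7346 counts in the 6 libraries of *L1-FGGY* with DMSO or ML355, 78 to 91 in the control and 82 to 103 in the libraries labelled *L1-FGGY* with NVR. The latter therefore lie at the control level and are called the libraries labelled NVR, given below against the control as well as against *L1-FGGY* with DMSO. The same split was seen for markers. Of the 6 squamous markers, *SOX2* stood at 15.1 to 17.1 CPM (counts scaled to library size with TMM factors) in the control, 7.02 to 13.3 in the libraries labelled NVR and 0 in all 6 others, and *KRT6A* and *DSG3* were at 0 in all 12 libraries, and in each group 3 or 4 of the 6 were at 0 in all its libraries. The summed level of 4 fibroblast markers was 19.4 to 25.5 CPM in the control and NVR-labelled libraries, 341 to 359 in *L1-FGGY* with DMSO and 112 to 122 with ML355, with *DCN* at 0 in the first 6 libraries. The summed 3 endothelial markers reached 8.89 to 9.41 CPM in *L1-FGGY* with DMSO and at most 0.69 elsewhere, and the 4 leukocyte markers at most 3.81. Libraries correlated at 0.979 to 0.993 within a group and at 0.706 to 0.774 across these 2 sets (*L1-FGGY* with DMSO or ML355 against the other 6). Whether the vector or another difference between these 2 sets of libraries moved a gene cannot be told apart in the comparisons that cross them, and the part of the marker differences in the results was not tested. Whether all 12 libraries are of 1 line and rightly labelled could not be settled from these values.

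Levels of the mitochondrial ribosomal protein genes were moderate. The mean over 12 libraries ran from 1.35 to 216 CPM with a median of 53.0, against a median of 14.6 CPM over all genes tested. In 69 of the 78, every library had at least 100 counts, and the lowest count of any member in any library was 13. Levels of different genes were compared per kilobase of canonical transcript not shared with another gene, for the 70 members with less than 50% of that transcript shared. *MRPL41* (large subunit) was highest at 336 CPM per kb, followed by *MRPS34* at 230, *MRPS12* of the decoding site at 141, *MRPS30* at 131 and *MRPL24*, which lies near the exit of the nascent chain tunnel, at 127. The lowest were *MRPL42* at 4.25, whose annotated transcript of 15557 bases is long, *MRPS17* at 4.45, *MRPL19* at 8.31, *MRPS33* at 8.42 and *MRPS25* at 8.43. Highest and lowest differed 78.9-fold. The position of *MRPS30* depended on the group, with 18.5 ± 1.07 CPM per kb in the control and 349.7 ± 32.3 (SD, n = 3 each) in *L1-FGGY* with ML355.

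**Figure D1:**
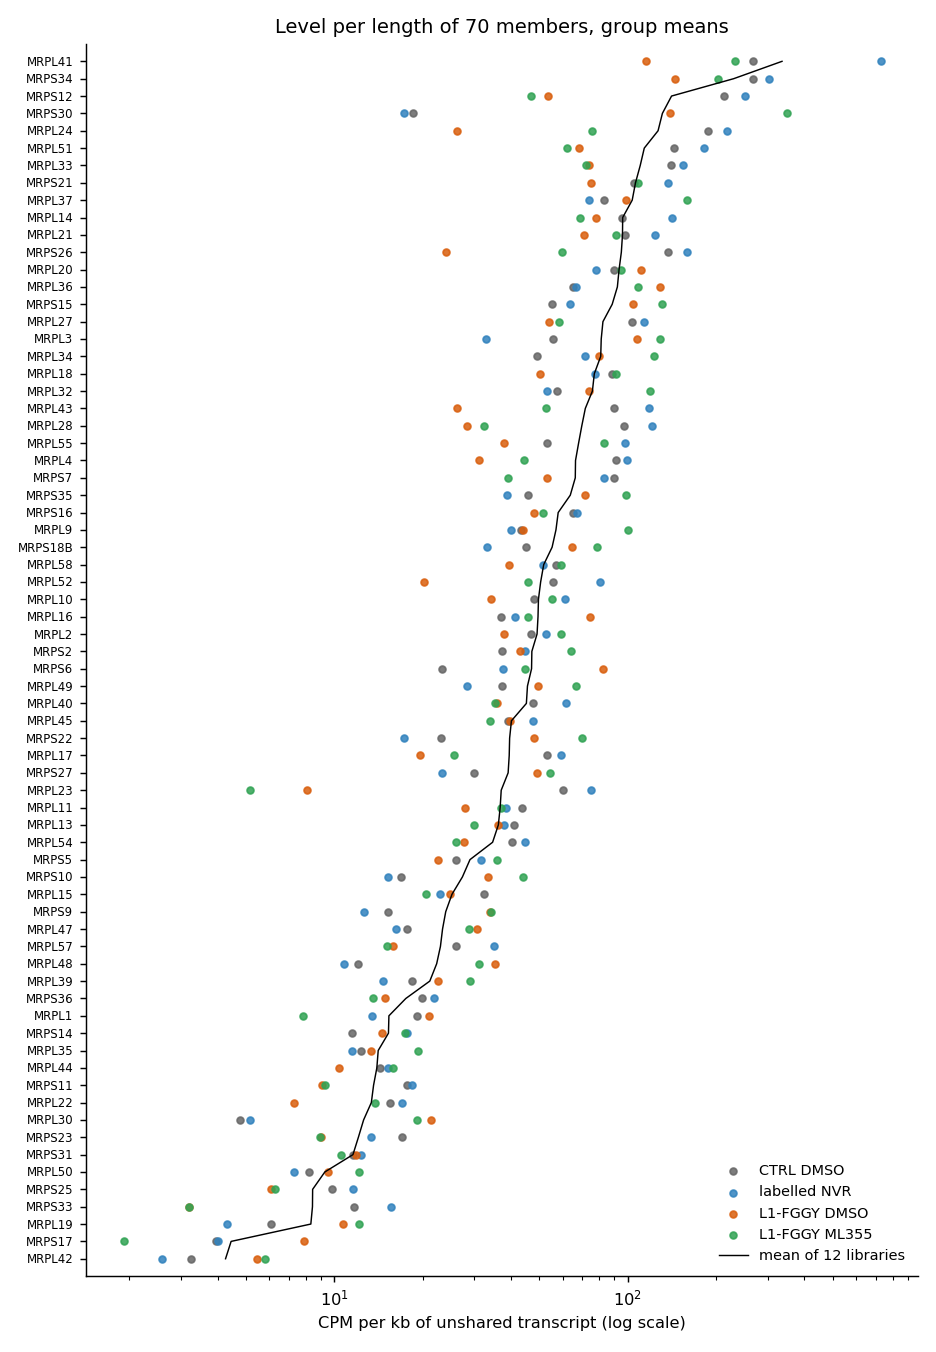
Level of 70 members in CPM per kb of unshared canonical transcript (log axis), ordered by the mean over 12 libraries (line), with the mean of 3 libraries per group as points. MRPL41 is highest at 336 and MRPL42 lowest at 4.25 CPM per kb, and the points of MRPS30, MRPL23 and MRPL24 lie farther apart than those of any other member drawn.

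The counting limits some members. In 8 members at least 50% of the canonical transcript lies in exons of another gene, and these had mean levels of 1.35 to 19.2 CPM against a median of 56.3 CPM for the other 70. *MRPL53* shares 99.2% of its transcript, mostly with *CCDC142*, *MRPL38* 94.3%, *MRPS24* 90.9%, *MRPS18C* 83.6%, *MRPL46* 73.4%, *MRPL12* 69.5%, *MRPS18A* 60.6% and *MRPS28* 56.2%. How the counter handled reads in shared exons, and whether it used strand, is not given in the sources used here, so the values of these 8 are uncertain. A further limit is that 36 of the 78 members have pseudogenes named after them. Counts given to these were 4.82% of the member's own for *MRPS31*, 4.53% for *MRPS17* and 1.71% for *MRPS18C*, and under 1% for the other 33.

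Promoters are shown for 4 members that the comparisons below turn on. They are *MRPS30* and *MRPS26*, with opposite changes between *L1-FGGY* and control, *MRPL41*, the member with the largest rise in the libraries labelled NVR against control, and *MRPL52*, with 2 matches to the letters of YY1. Each line holds the 250 bases before the RefSeq start in GRCh38.p14, in the direction of the gene, at chr5:44808697-44808946 (+ strand), chr20:3045802-3046051 (+), chr9:137551629-137551878 (+) and chr14:22829637-22829886 (+). Capitals mark matches to the letters of an ETS site (CCGGAAG), of YY1 (AAGATGGCG) or of the NRF1 motif on either strand. ETS letters end in AAG and YY1 letters begin with it, so that 1 stretch can hold both.
MRPS30: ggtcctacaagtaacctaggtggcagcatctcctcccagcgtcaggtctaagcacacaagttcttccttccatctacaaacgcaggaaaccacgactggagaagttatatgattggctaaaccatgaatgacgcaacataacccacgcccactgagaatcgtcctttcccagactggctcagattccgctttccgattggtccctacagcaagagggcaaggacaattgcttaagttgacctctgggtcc
MRPS26: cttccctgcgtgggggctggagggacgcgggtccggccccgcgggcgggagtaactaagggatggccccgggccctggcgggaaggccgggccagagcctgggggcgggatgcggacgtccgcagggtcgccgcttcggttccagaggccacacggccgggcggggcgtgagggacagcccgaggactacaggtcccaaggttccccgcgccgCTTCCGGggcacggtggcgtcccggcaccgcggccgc
MRPL41: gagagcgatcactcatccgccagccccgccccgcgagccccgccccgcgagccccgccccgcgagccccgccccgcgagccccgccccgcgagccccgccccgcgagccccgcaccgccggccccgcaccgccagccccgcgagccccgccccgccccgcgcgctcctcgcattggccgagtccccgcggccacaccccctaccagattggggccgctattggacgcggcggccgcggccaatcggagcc
MRPL52: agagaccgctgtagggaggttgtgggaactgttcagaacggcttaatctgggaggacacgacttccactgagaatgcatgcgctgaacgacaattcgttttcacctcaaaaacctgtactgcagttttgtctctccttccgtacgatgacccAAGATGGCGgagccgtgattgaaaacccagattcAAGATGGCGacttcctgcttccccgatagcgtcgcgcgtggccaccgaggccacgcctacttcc
RefSeq promoters of 250 bases before and 50 after the start were used for 69 of the 78 members, all but *MRPL2*, *MRPL10*, *MRPL13*, *MRPL15*, *MRPL21*, *MRPL23*, *MRPL35*, *MRPS28* and *MRPS36*. The ETS letters were in 42.0% of them (29 members) against 14.23% of 15842 promoters of coding genes, and the YY1 letters in 18.8% (13 members) against 2.74%. The NRF1 motif, bound by a regulator of nuclear genes for mitochondrial proteins, was in 11.6% (8 members) against 8.57%. Within the 250 bases before the start alone the shares were 33.3% against 11.8% for ETS and 4.35% (3 members) against 0.751% for YY1, so that in 10 of the 13 members the YY1 letters reached past the start. A match to letters is a description of the sequence and does not show binding. Upstream of *MRPS30* and *MRPL41* none of these letters was found, which says nothing of the factors. Past the start, *MRPS30* has the YY1 letters at position 13 and is counted among the 13 members with them. *MRPL52* has the ETS letters at position -5, reaching past the start, so they are not marked above. In *L1-FGGY* with DMSO against control, the median log2 fold change was -0.44 in the 29 members with the ETS letters and 0.21 in the 40 without, and 0.75 in the 13 with the YY1 letters and -0.36 in the 56 without. These medians are given with no test.

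The first comparison asked how *L1-FGGY* cells differ from control cells in DMSO. Mitochondrial ribosomal protein genes split in both directions. Of 78 members, 25 were higher (32.1%) and 29 lower (37.2%) at a Benjamini-Hochberg adjusted p under 0.01 in edgeR's quasi-likelihood test, where 32.5% of all genes tested were called higher and 36.2% lower. The shares thus lay near those of all genes. The median log2 fold change was -0.20 over the members and -0.11 over all genes. A called change of at least 1 on the log2 scale was found in 24 of 78 members, against 51.1% of all genes tested. The median absolute log2 fold change was 0.76 in the members and 1.17 over all genes, which have lower counts. Within the large subunit 14 of 51 members were higher and 20 lower, and within the small subunit 11 of 26 were higher and 9 lower.

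*MRPS30* (chr5:44808947-44820428, + strand, in the GRCh38 annotation of GENCODE) rose most. It stood at 31.5, 28.5 and 31.6 CPM in replicates 1 to 3 of the control and at 226, 246 and 217 CPM in *L1-FGGY* with DMSO. No library of one group came near the other, and the log2 fold change was 2.91 (SE 0.12, adjusted p = 2.2e-12 in edgeR). *MRPL30*, of the large subunit, had 20.9, 17.4 and 17.1 CPM in the control and 86.7, 82.1 and 78.5 CPM in *L1-FGGY* with DMSO, with a log2 fold change of 2.15 (SE 0.12, adjusted p = 8.2e-11 in edgeR). *MRPS6*, of the small subunit, rose from 17.5, 12.4 and 13.6 to 48.8, 59.4 and 46.2 CPM, by a log2 fold change of 1.83 (SE 0.18, adjusted p = 1.2e-07 in edgeR). These 3 had groups far apart. *MRPS24*, at the entry of the messenger RNA, and *MRPL53* also rose, by log2 fold changes of 2.07 and 2.0. Both are among the 8 members with shared exons and lay at only 2.86 ± 0.646 and 5.04 ± 1.2 CPM (SD, n = 3 each) in *L1-FGGY* with DMSO.

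The largest falls were in *MRPL23* and *MRPL24*, both at the tunnel exit. *MRPL23* (chr11:1947278-1984522, + strand) had 52.3, 37.3 and 31.9 CPM in the control and 5.91, 6.21 and 4.23 CPM in *L1-FGGY* with DMSO, a log2 fold change of -2.89 (SE 0.34, adjusted p = 8.8e-07 in edgeR). *MRPL24* (chr1:156737303-156741590, - strand) had 199, 158 and 138 CPM in the control and 20.4, 25.9 and 23.2 CPM in *L1-FGGY* with DMSO, a log2 fold change of -2.83 (SE 0.23, adjusted p = 1.3e-08 in edgeR). In both genes every *L1-FGGY* library lay under every control library. *MRPS26* (chr20:3046052-3048250, + strand), specific to the mitochondrial small subunit, went from 168, 132 and 118 to 23.3, 25.7 and 24.1 CPM and changed by -2.51 (SE 0.20, adjusted p = 8.7e-09 in edgeR) in log2. *MRPS12*, which helps to read the codon, went from 243, 196 and 173 to 50.2, 57.6 and 45.5 CPM with a log2 fold change of -2.0 (SE 0.22, adjusted p = 5.8e-07 in edgeR). *MRPS33* fell by 1.88 on the log2 scale, from 49.2 ± 7.66 to 13.4 ± 0.334 CPM (SD, n = 3 each). In each of these 5 genes the groups did not overlap.

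**Figure D2:**
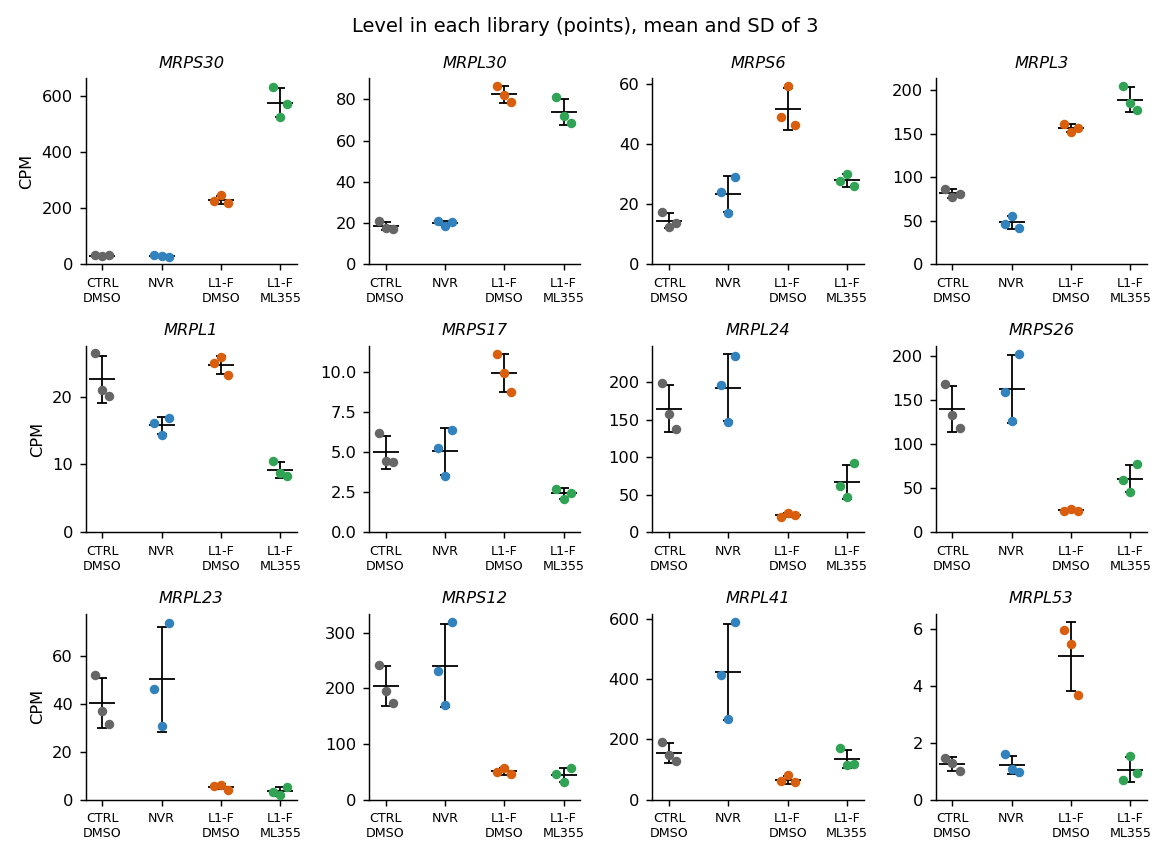
CPM of 12 members in each library (points) with the mean and SD of 3 per group (bars), linear axes from 0. MRPS30 lies between 26.4 and 31.6 CPM in the control and NVR-labelled libraries and between 217 and 632 CPM in the L1-FGGY libraries, while MRPL24, MRPS26, MRPL23 and MRPS12 show the opposite order.

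Functional neighbours within the ribosome did not move as one. Of the stalk proteins that recruit translation factors, *MRPL12* had a log2 fold change of -1.72, *MRPL10* of -0.48 and *MRPL11* of -0.65, all lower and past the test. Around the tunnel exit, *MRPL22* fell by 1.08 like *MRPL23* and *MRPL24*, *MRPL47* rose by 0.79, and *MRPL45*, which contacts the inner membrane, was at 0.02 (edgeR adjusted p = 0.87). *MRPL58*, a peptidyl-tRNA hydrolase built into the large subunit, fell by 0.53, and *MRPS5*, near the messenger RNA entry, had -0.2 (edgeR adjusted p = 0.21). The 3 paralogs of the S18 family were all higher, *MRPS18A* by 0.83, *MRPS18B* by 0.52 and *MRPS18C* by 0.75. Of 5 members in which mutations cause human respiratory chain disease, *MRPS22* (1.05) and *MRPL3* (0.95) rose, and *MRPS34* (-0.89), *MRPL44* (-0.47) and *MRPS16* (-0.44) fell. *MRPS36* had -0.42 (edgeR adjusted p = 0.014). Under an offset for the GC content of transcripts, added after seeing the data, *MRPL12* (-0.46), *MRPL11* (-0.34), *MRPL47* (0.11), *MRPL58* (-0.17) and *MRPS18C* (0.013) missed the threshold, and *MRPL10* and *MRPS34* changed sign. *MRPL10* (-0.40) and *MRPL44* (-0.38) missed it with library size alone. With limma voom, an alternative test, *MRPL11* (-0.63) missed it. *MRPS18C* also missed it with DESeq2 size factors (0.71), with mitochondrially encoded genes left out (0.74) and with no filter on low counts (0.68). Some of these calls depended on a single library, with the log2 fold change without it in brackets. *MRPL10* missed the threshold without replicate 3 of *L1-FGGY* with DMSO (at -0.38). *MRPL11* missed the threshold without replicate 1, 2 or 3 of *L1-FGGY* with DMSO, replicate 3 of ML355, replicate 1 of the control or replicate 1 of the NVR-labelled group (at -0.67 to -0.43). *MRPL58* missed the threshold without replicate 1 or 3 of *L1-FGGY* with DMSO or replicate 1 of the control (at -0.53 to -0.4). *MRPS18C* missed the threshold without replicate 1 or 2 of *L1-FGGY* with DMSO, replicate 1, 2 or 3 of the control or replicate 1 or 2 of the NVR-labelled group (at 0.67 to 0.81). *MRPL44* missed the threshold without replicate 2 or 3 of *L1-FGGY* with DMSO, replicate 1, 2 or 3 of the control or replicate 1 of the NVR-labelled group (at -0.48 to -0.41). *MRPS16* missed the threshold without replicate 1 or 3 of *L1-FGGY* with DMSO or replicate 1 of the control (at -0.44 to -0.36). *MRPS34* missed the threshold without replicate 1 or 3 of *L1-FGGY* with DMSO or replicate 1 or 2 of the control (at -0.9 to -0.72).

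*MRPS11* and *MRPL46* lie head to head, at chr15:88467453-88480776 (+ strand) and chr15:88459477-88467390 (- strand), and were named after their values were seen. *MRPS11* had 59.2, 48 and 44.8 CPM in the control and 23.6, 27.8 and 26.7 CPM in *L1-FGGY* with DMSO, a log2 fold change of -0.96 (SE 0.13, adjusted p = 6.0e-06 in edgeR). *MRPL46* had 2.27, 1.96 and 2.49 and 5.05, 6.0 and 6.95 CPM, a log2 fold change of 1.42 (SE 0.23, adjusted p = 3.0e-05 in edgeR). The pair thus moved in opposite directions, with the limit of shared exons for *MRPL46*.

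The changes of the members ran alongside those of the genes around them. For 77 members with at least 5 other tested genes within 1000000 bases, the correlation of the member's log2 fold change with the median of those genes was Pearson 0.56 and Spearman 0.60, and 54 of 77 had the same sign. Over 12749 coding genes the Pearson correlation was 0.26. There only tested coding genes were taken as neighbours, so the 2 values are not of the same measure. The points share libraries and overlapping windows, so this is a description. *MRPS12* at -2.0 sat among genes with a median of -2.18, *MRPS26* at -2.51 among genes at -1.64 and *MRPL30* at 2.15 among genes at 1.29. By contrast the genes around *MRPL24* had a median of -0.02. *MRPS24* at 2.07 and *MRPL53* at 2.0 sat among genes at -0.22 and -0.20, and *MRPS33* at -1.88 among genes at 0.08. *MRPS30*, the largest rise, had only 2 such genes and is not among the 77. In ML355 against *L1-FGGY* with DMSO the member correlation was -0.01 (coding genes 0.07), and in the libraries labelled NVR against control 0.37 (coding genes 0.10).

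**Figure D3:**
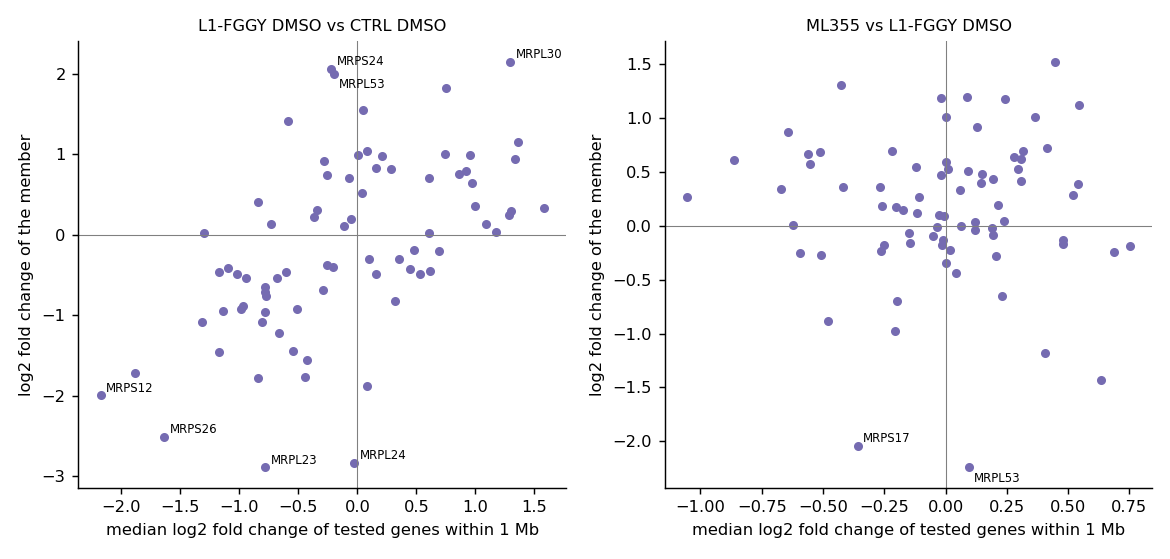
Log2 fold change of each of 77 members (vertical) against the median log2 fold change of the other tested genes within 1 Mb (horizontal), for L1-FGGY with DMSO against control (left) and ML355 against L1-FGGY with DMSO (right). On the left the points rise from lower left to upper right with wide scatter (Pearson 0.56), and on the right they show no such order (Pearson -0.01).

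Base composition also moved with this comparison. The Spearman correlation of the log2 fold change with the GC content of the canonical transcript was -0.33 over the 78 members and -0.37 over 17701 genes. With the GC offset *MRPL41* (66.7% GC) went from -1.22 to 0.20, *MRPS34* (64.6% GC) from -0.89 to 0.38 and *MRPL10* from -0.48 to 0.060, while the counts were 25 higher and 26 lower. In ML355 against *L1-FGGY* with DMSO the correlation with GC content was 0.22 over the members and 0.045 over all genes. In the libraries labelled NVR against control it was 0.43 and 0.17, and that with transcript length was -0.33 and -0.25. The part of base composition in these results was not tested further.

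The second comparison asked how *L1-FGGY* cells with ML355 differ from those with DMSO. These groups also differed in the summed fibroblast and endothelial markers given above, and the part of that difference in the results was not tested. In this comparison the mitochondrial ribosomal protein genes leaned upward. Of 78 members, 26 were higher (33.3%) and 6 lower (7.7%) in edgeR at an adjusted p under 0.01, where 21.3% of all genes tested were higher and 23.5% lower. The median log2 fold change was 0.19 over the members, and 49 of 78 were positive. Scaling by library size alone moved the median of all genes by -0.13 in this comparison, and the member median under it is not given here. With a library left out, 18 to 27 members were higher and 6 to 7 lower, and the median ranged from 0.14 to 0.27. By size the changes were modest, with a median absolute log2 fold change of 0.39 in the members against 0.69 over all genes, which have lower counts. The large subunit had 20 of 51 members higher and 4 lower, with a median of 0.34, and the small subunit 6 of 26 higher and 2 lower, with a median of 0.07. Among large subunit members, those specific to mitochondria (10 of 21 higher, 2 lower) and those with bacterial homologs (10 of 30 higher, 2 lower) both leaned upward.

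*MRPL24* rose most, from 20.4, 25.9 and 23.2 CPM in *L1-FGGY* with DMSO to 61.6, 46.4 and 91.9 CPM with ML355, a log2 fold change of 1.52 (SE 0.23, adjusted p = 2.9e-05 in edgeR). *MRPS30* went from 226, 246 and 217 to 632, 526 and 570.3 CPM, a log2 fold change of 1.33 (SE 0.11, adjusted p = 5.7e-08 in edgeR). *MRPS26* went from 23.3, 25.7 and 24.1 to 58.8, 45.8 and 76.8 CPM, a log2 fold change of 1.31 (SE 0.19, adjusted p = 3.1e-05 in edgeR). None of these groups overlapped, and in *MRPL24* and *MRPS26* the ML355 libraries were spread more widely than the DMSO libraries. *MRPL9* (chr1:151759647-151763496, - strand), of the large subunit, rose from 27.2, 31 and 32.4 to 71.5, 60.4 and 75.5 CPM with a log2 fold change of 1.19 (SE 0.13, adjusted p = 1.7e-06 in edgeR). *MRPL38* had 1.19, at 1.86 ± 0.237 and 4.24 ± 1.09 CPM (SD, n = 3 each), and is one of the members with shared exons. *MRPL38* missed the threshold without replicate 2 or 3 of *L1-FGGY* with DMSO or replicate 1 or 3 of ML355 (at 1.06 to 1.16). *MRPL52*, whose promoter is shown above, had 20, 24 and 23.2 CPM with DMSO and 59, 41.7 and 51.3 CPM with ML355, a log2 fold change of 1.18 (SE 0.20, adjusted p = 1.2e-04 in edgeR), after a change of -1.46 between control and *L1-FGGY* with DMSO.

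Falls were called in 6 members, led by *MRPL53*, *MRPS17* and *MRPL1*. *MRPL1*, at chr4:77862830-77952785 (+ strand) and part of the stalk through which spent transfer RNA leaves, went from 25, 25.9 and 23.2 to 10.5, 8.7 and 8.25 CPM, a log2 fold change of -1.43 (SE 0.14, adjusted p = 5.4e-07 in edgeR). *MRPS17*, at chr7:55951877-55956500 (+ strand) and of the small subunit, went from 11.2, 9.94 and 8.77 to 2.71, 2.06 and 2.47 CPM, a log2 fold change of -2.04 (SE 0.24, adjusted p = 2.9e-06 in edgeR). It is one of the 5 members lowest per length. Every ML355 library lay under every DMSO library in both. *MRPL53* fell by 2.24, at 5.97, 5.47 and 3.68 CPM before and 0.69, 1.54 and 0.946 CPM with ML355, *MRPS18A* by 1.18, *MRPS6* by 0.89 and *MRPL16* by 0.70 on the log2 scale. The last 3 had higher levels, *MRPL16* with 80.2 ± 7.31 and 49.3 ± 1.49 CPM, *MRPS6* with 51.5 ± 6.97 and 27.8 ± 2.01 CPM and *MRPS18A* with 30.5 ± 3.19 and 13.4 ± 3.07 CPM (SD, n = 3 each) under DMSO and ML355. *MRPL53* and *MRPS18A* share most of their transcript with another gene.

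By role, the stalk protein *MRPL10* rose by 0.69, while *MRPL12* had 0.19 and *MRPL11* 0.41 (edgeR adjusted p = 0.69 and 0.094). At the tunnel exit *MRPL22* rose by 0.92 beside *MRPL24*, whereas *MRPL23* had -0.65 and *MRPL45* -0.22 (edgeR adjusted p = 0.15 and 0.11). *MRPL58* rose by 0.59, *MRPS5* by 0.66, *MRPL44* by 0.61 and *MRPS22* by 0.55. *MRPL44* missed the threshold without replicate 2 of *L1-FGGY* with DMSO or replicate 3 of ML355 (at 0.46 to 0.55). *MRPL58* missed the threshold without replicate 1 of *L1-FGGY* with DMSO or replicate 1 of ML355 (at 0.51 to 0.53). With library size alone *MRPL44* (0.48) and *MRPS22* (0.42) missed it too. *MRPS12* was not past the test at -0.18 (edgeR adjusted p = 0.5), nor was *MRPS16* at 0.1 (edgeR adjusted p = 0.51).

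Summed over members, *L1-FGGY* with DMSO held 3859, 4145 and 3793 CPM and *L1-FGGY* with ML355 held 5424, 4713 and 5299 CPM. The groups did not overlap. *MRPS30* alone made up 217 to 246 CPM of the first and 526 to 632 CPM of the second, and without it the sums were 3702 ± 172 and 4569 ± 333 CPM (SD, n = 3 each). The sum of large subunit genes over that of small subunit genes was 1.85 ± 0.0380 with DMSO and 2.08 ± 0.0971 with ML355. These groups did not overlap either, at 1.80 to 1.87 and 1.995 to 2.19. This separation rested on *MRPS30*. Without it, a choice made after seeing the data, the ratios were 1.64, 1.70 and 1.70 with DMSO and 1.81, 1.71 and 1.67 with ML355, which overlap. In bulk RNA, fewer cells that express a gene and less RNA per cell cannot be told apart.

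The third comparison set the libraries labelled NVR against the control, which had a similar *FGGY* level. Few members differed. Of 78, 4 were higher (5.1%) and 7 lower (9.0%) in edgeR at an adjusted p under 0.01, where 14.5% of all genes tested were higher and 15.3% lower. These counts were unstable when a library was left out, with 13 higher and 4 lower without NVR replicate 2, 1 and 4 without NVR replicate 3, 2 and 3 without NVR replicate 1, and 5 and 2, 1 and 2, and 1 and 6 without replicates 1, 2 and 3 of the control. On simulated data for this comparison, 73% of genes changed by 1 on the log2 scale were recovered. Those genes were drawn from all genes at 1 CPM or more in the control, so this is not the rate for the members. Smaller changes were not simulated.

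*MRPL41* (chr9:137551879-137552555, + strand) rose most, from 192, 147 and 127 CPM in the control to 412, 269 and 589 CPM in the libraries labelled NVR, a log2 fold change of 1.44 (SE 0.24, adjusted p = 2.1e-04 in edgeR). The groups did not overlap, and replicate 3 was the highest of the NVR-labelled libraries for *MRPL41*, as it was for summed cytosolic ribosomal proteins. *MRPL55*, a large subunit protein with a bacterial homolog, had 47.9, 37.9 and 32 and 68, 50.4 and 98.5 CPM, a log2 fold change of 0.88 (SE 0.22, adjusted p = 0.0043 in edgeR). *MRPS14*, of the small subunit, had 27.2, 23.1 and 22.7 and 36, 29.8 and 46.1 CPM, a log2 fold change of 0.61 (SE 0.15, adjusted p = 0.0036 in edgeR). *MRPS6* passed the test at 0.68, but its groups overlapped, at 12.4 to 17.5 and 16.9 to 29.1 CPM. The call of *MRPL41* held with each library left out in turn, and the other 3 did not. *MRPL55* missed the threshold without replicate 2 or 3 of the control or replicate 3 of the NVR-labelled group (at 0.6 to 0.85). *MRPS14* missed the threshold without replicate 2 or 3 of the control or replicate 1 or 3 of the NVR-labelled group (at 0.44 to 0.64). *MRPS6* missed the threshold without replicate 2 or 3 of the control or replicate 1 or 3 of the NVR-labelled group (at 0.5 to 0.66). These 3 also missed it in a fit of the control and NVR-labelled libraries alone (0.88, 0.61 and 0.68), and *MRPS14* (0.44) and *MRPS6* (0.51) with library size alone. With limma voom, *MRPS6* (0.65) missed it too.

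Among the falls, *MRPL3*, at chr3:131462212-131502983 (- strand) and reaching towards the catalytic centre, had 86.9, 77.1 and 80.6 CPM in the control and 46.7, 55.6 and 41.8 CPM in the libraries labelled NVR, a log2 fold change of -0.76 (SE 0.11, adjusted p = 8.0e-05 in edgeR). *MRPL19* had 39.2, 35.7 and 35.1 and 27, 26.5 and 24.3 CPM, a log2 fold change of -0.5 (SE 0.11, adjusted p = 0.0014 in edgeR). The libraries of each pair of groups stood apart. *MRPL1* fell by 0.52, *MRPL15* by 0.49, *MRPS18B* by 0.44, *MRPL49* by 0.40 and *MRPS27* by 0.36 on the log2 scale. For *MRPL49* and *MRPS27* (edgeR adjusted p = 0.0043 and 0.0062) the calls with a library left out are not given here. *MRPL1* missed the threshold without replicate 1 of *L1-FGGY* with DMSO, replicate 1 or 2 of the control or replicate 1 or 2 of the NVR-labelled group (at -0.57 to -0.39). *MRPL15* missed the threshold without replicate 1 or 2 of the control or replicate 2 or 3 of the NVR-labelled group (at -0.5 to -0.43). *MRPS18B* missed the threshold without replicate 1 or 2 of the control or replicate 1 or 2 of the NVR-labelled group (at -0.45 to -0.36). *MRPL1* and *MRPS18B* also missed it in the fit of these 6 libraries alone (-0.52 and -0.44), and *MRPL1* with DESeq2 size factors (-0.48) and the GC offset (-0.37). The members with the largest changes between *L1-FGGY* and control were not past the test here, with *MRPS30* at -0.1, *MRPL24* at 0.23, *MRPS26* at 0.22, *MRPL23* at 0.31 and *MRPL30* at 0.11 (edgeR adjusted p from 0.36 to 0.50).

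Against *L1-FGGY* with DMSO, the comparison that the label implies, the same libraries had 34 members higher (43.6%) and 29 lower (37.2%), where 38.2% of all genes tested were higher and 35.4% lower. *MRPL23* (3.2), *MRPL24* (3.06), *MRPS26* (2.73), *MRPL41* (2.66) and *MRPS33* (2.29) had the largest rises. *MRPS30* (-3.01), *MRPL30* (-2.05), *MRPL53* (-2.04), *MRPS24* (-1.82) and *MRPL48* (-1.71) had the largest falls. This comparison shares the *L1-FGGY* libraries with both earlier ones and crosses the 2 sets of libraries that differ in *FGGY*, *SOX2* and *DCN*.

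**Figure D4:**
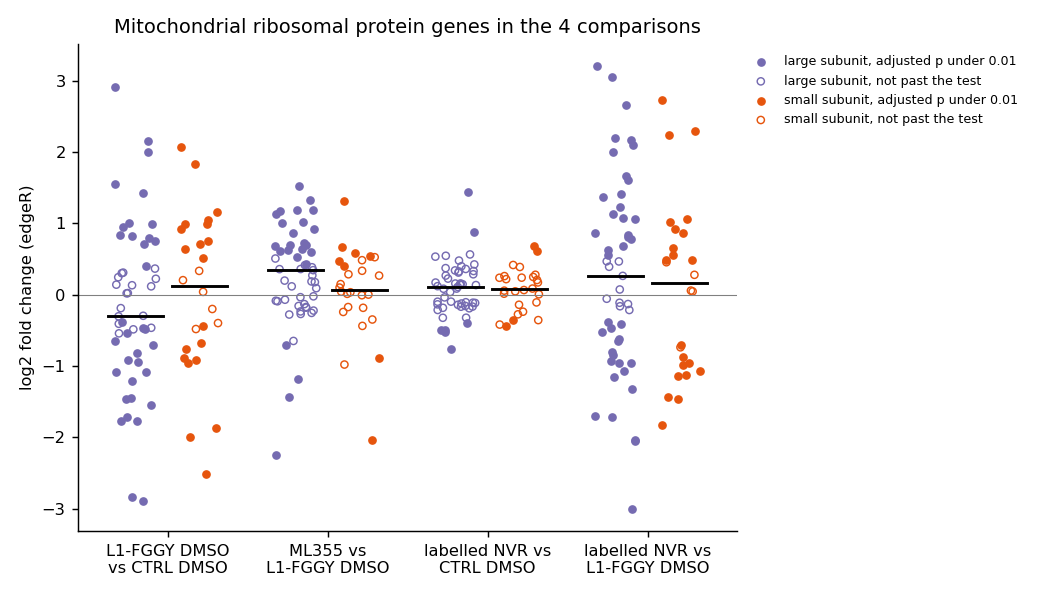
Log2 fold change from edgeR of the large (51) and small (26) subunit genes in the 4 comparisons, filled where the adjusted p is under 0.01, with the median as a bar. The spread is widest in the comparisons that cross the 2 sets of libraries and narrowest for the libraries labelled NVR against control, where 11 members passed the test.

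The inhibitor comparisons use separate libraries, ML355 against *L1-FGGY* with DMSO and the libraries labelled NVR against control, so their difference was tested in one model. For 6 members the change in the NVR-labelled libraries was higher and for 18 it was lower than with ML355, where 16.8% and 17.3% of all genes tested differed (7.7% and 23.1% of members). *MRPL41* and *MRPL55* were higher in both comparisons, and the difference between the effects was 0.43 (SE 0.34, adjusted p = 0.32 in edgeR) for *MRPL41*. With ML355, *MRPL41* missed the threshold without replicate 1 or 3 of *L1-FGGY* with DMSO or replicate 1 of ML355 (at 0.81 to 0.95). *MRPL1* was lower in both, and less so in the NVR-labelled libraries, with a difference of 0.91 (SE 0.20, adjusted p = 0.0014 in edgeR). *MRPS6* was lower with ML355 and higher in the NVR-labelled libraries, with a difference of 1.57 (SE 0.25, adjusted p = 1.0e-04 in edgeR), and *MRPL49* was higher with ML355 and lower in those libraries, with a difference of -0.83 (SE 0.14, adjusted p = 1.6e-04 in edgeR). The NVR-labelled libraries have the *FGGY* level of the control, so that compound and vector cannot be told apart in this difference.

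Other genes of the pathway were set beside them. In ML355 against *L1-FGGY* with DMSO, 2 of 5 subunits under other symbols were higher (*DAP3* at 0.55 and *GADD45GIP1* at 0.82) and 1 lower (*PTCD3* at -0.37). Over all genes tested, 21.3% were higher and 23.5% lower in this comparison. Of 28 assembly factors 4 were higher (14.3%) and 7 lower (25.0%), led by the RNA helicase *DDX28*, which went from 27.3 ± 2.34 to 2.83 ± 0.450 CPM (SD, n = 3 each) with a log2 fold change of -3.27. Of 14 translation factors 4 were higher and 4 lower (28.6% each), with the initiation factors *MTIF2* (1.03) and *MTIF3* (1.17) among the rises. The 2 mitochondrial ribosomal RNAs, *MT-RNR1* and *MT-RNR2*, were higher by 0.86 and 1.22, while all 13 mitochondrial messenger RNAs were lower, by a median of 3.23 on the log2 scale. So the RNA components and 26 of the 78 members were higher, with 6 members lower, beside a lower level of the messages that the ribosome translates. Of 82 cytosolic ribosomal protein genes tested, 41 were higher (50%) and 0 lower. Their median log2 fold change was 0.65, against 0.19 for the 78 members.

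In *L1-FGGY* with DMSO against control, 3 of the 5 subunits under other symbols were higher and 1 lower, 6 of 28 assembly factors were higher (21.4%) and 11 lower (39.3%), with the ribosomal RNA methyltransferase *MRM1* at -3.82, and 6 of 14 translation factors were higher (42.9%) and 4 lower (28.6%), beside 32.5% and 36.2% of all genes tested. Against the same control, the libraries labelled NVR had 3 assembly factors higher (10.7%) and 6 lower (21.4%), 2 translation factors higher and 2 lower (14.3% each), 1 of the 5 subunits under other symbols lower, and both mitochondrial ribosomal RNAs higher, by 1.33 and 1.48, beside 14.5% and 15.3% of all genes tested. Of the cytosolic ribosomal protein genes 66 of 82 (80.5%) were higher there, with a median of 0.85, against 0.10 for the 78 members. Summed cytosolic ribosomal proteins were 136265, 101449 and 175385 CPM in the libraries labelled NVR and 90041, 69309 and 63086 CPM in the control. Summed members were 5172, 4151 and 6188 CPM and 5250.1, 4344 and 4026 CPM in the same libraries. The first pair of groups did not overlap and the second did.

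**Figure D5:**
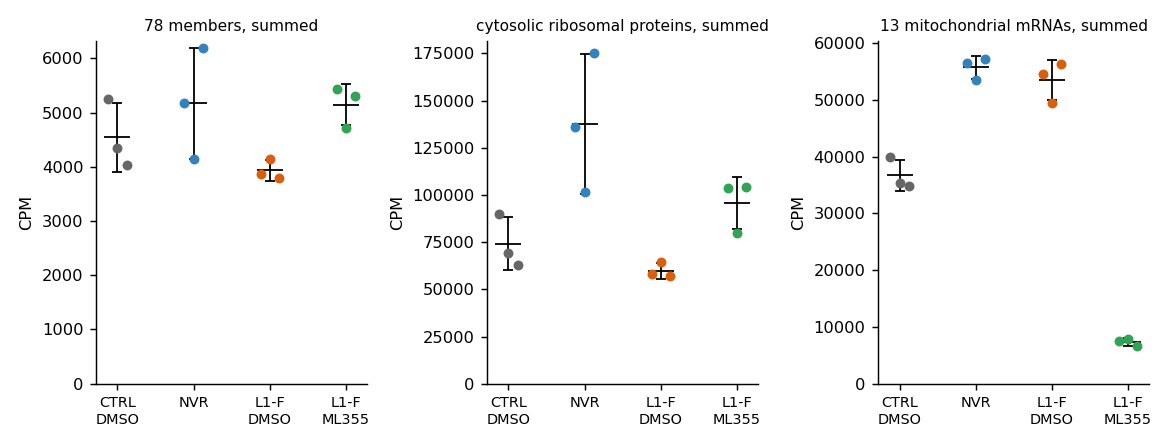
Summed CPM of the 78 members (left), of cytosolic ribosomal proteins (middle) and of 13 mitochondrial messenger RNAs (right) in each library, with the mean and SD of 3 per group. With ML355 the members reach 4713 to 5424 CPM, above the 3793 to 4145 CPM of L1-FGGY with DMSO, while the mitochondrial messenger RNAs drop to between 6619 and 7950 CPM.

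Across the 4 comparisons, 4 members passed no test, which were *MRPL13*, *MRPL45*, *MRPS28* and *MRPS31*. A further 17 passed 1, 31 passed 2, 23 passed 3 and 3 passed all 4, namely *MRPL41*, *MRPL49* and *MRPS6*. The groups of *MRPS6* overlapped in the libraries labelled NVR against control. The same counts over all genes are not given here. Of all genes tested, 32.5% were higher and 36.2% lower in *L1-FGGY* with DMSO against control. For NVR-labelled against *L1-FGGY* with DMSO these shares were 38.2% and 35.4%. Since the comparisons share libraries, the counts of members describe the table and are not independent.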

How the data were processed

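Per the processing notes of the submitters, the authors used STAR 2.5.3a (genome build hg38) and HTSeq 0.11.2. The deposited values are raw counts per Ensembl gene, not normalized. The annotation release and the strand setting are not given in the sources used here, and the labels name a TruSeq kit where the methods name one from NEB. Of 58302 rows, 57532 were matched to GENCODE 44. Counts were filtered with filterByExpr, scaled by TMM and tested with edgeR 4.0.16 (robust quasi-likelihood fit of 4 group means, R 4.3.3) over 17849 genes, with Benjamini-Hochberg adjusted p under 0.01. As alternatives, DESeq2 1.42.0 and limma 3.58.1 (voom) were run, with other scalings, filters and thresholds, a fit of 2 groups, a replicate block, and each library left out, and, added after seeing the data, a GC offset and the members with less shared transcript. Named were, per comparison, the 5 largest rises and 5 largest falls past the test without overlap of groups, members chosen for their role, and the 5 highest and 5 lowest levels per length. Any other named member was chosen after its values were seen. The members and lists were chosen with earlier results of these data known. On simulated data, edgeR recovered 146 of 200 changed genes with 4 false calls over 16153 genes for the libraries labelled NVR against control. Depth sets a floor (3 counts) of 0.111 to 0.185 CPM. Promoters are from RefSeq. Tables and figures used pandas and matplotlib.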

Additional observations from a re-analysis of the deposited data

Results flagged for a closer look

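The test of the difference between the 2 inhibitor comparisons (the change of the libraries labelled NVR from control, minus the change with ML355 from *L1-FGGY* with DMSO) set apart 24 members in edgeR at an adjusted p under 0.01, and the 5 with the largest absolute difference are given here. *MRPL53* differed by 2.2 (SE 0.47, adjusted p = 0.0012 in edgeR) and *MRPS17* by 2.05 (SE 0.33, adjusted p = 1.1e-04 in edgeR), both lower with ML355 and not past the test in the libraries labelled NVR (-0.04 and 0.0055 on the log2 scale). *MRPS6* differed by 1.57 (SE 0.25, adjusted p = 1.0e-04 in edgeR), with changes of opposite sign. *MRPS30* differed by -1.42 (SE 0.16, adjusted p = 2.3e-06 in edgeR) and *MRPL9* by -1.31 (SE 0.19, adjusted p = 3.8e-05 in edgeR), both higher with ML355 and not past the test in the libraries labelled NVR. *MRPL53* shares 99.2% of its transcript with other genes, and *MRPS17* has 29.4% of its transcript shared. With 3 libraries in a group, single libraries were not screened for standing apart.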

How the results depend on the processing

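Counts and medians of the members held within 1.5 times (counts) or within 0.15 on the log2 scale (medians, the pooled SD of library medians) under most alternatives, and the counts that moved were mainly those of the libraries labelled NVR against control. There, 4 higher and 7 lower members became 2 and 11 with library size alone, 7 higher with no filter on low counts, 1 and 3 in a fit of the 2 groups compared, 9 and 11 at an adjusted p under 0.05, and 1 and 0 with a size of at least 1 on the log2 scale. Except for the last, the shares of all genes under these settings are not given here. Leaving out a library gave 1 to 13 higher and 2 to 8 lower. A size of at least 1 keeps large changes only. It left 9 higher members with ML355, and 10 higher and 14 lower in *L1-FGGY* with DMSO against control. It left 20 higher and 14 lower for NVR-labelled against *L1-FGGY* with DMSO. In the difference of the inhibitor effects it left 6 lower, beside *MRPL53*, *MRPS17*, *MRPS6* and *MRPS18A* higher. The share of all genes at this size is not given for the difference. In both directions together, 13 of the 78 members were called at this size with ML355, beside 25.7% of all genes tested. The counts were 24 beside 51.1% in *L1-FGGY* with DMSO against control, and 34 beside 57.6% for NVR-labelled against *L1-FGGY* with DMSO. For NVR-labelled against control, 1 member was called at this size, beside 13.1%. The shares of members were thus lower than those of all genes, which have lower counts. The member median went to -0.061 (NVR-labelled against control) and to 0.019 (NVR-labelled against *L1-FGGY* with DMSO) with library size alone, which moved the median of all genes by -0.15 and -0.24, and by -0.13 for ML355, and the median of the second became 0.43 over the 70 members with less shared transcript. With ML355 the member median was 0.19, so a median that held within 0.15 could still lie near 0. Same-numbered libraries did not deviate together (correlations from -0.35 to 0.17), so the numbers were not taken as pairs. With the replicate block the members higher and lower were 24 and 6 with ML355, 3 and 6 for NVR-labelled against control, 25 and 28 in *L1-FGGY* with DMSO against control, 33 and 29 for NVR-labelled against *L1-FGGY* with DMSO, and 6 and 18 for the difference. *MRPS6* in the NVR-labelled libraries (0.68), and *MRPS18C* (0.75) and *MRPL44* (-0.47) in *L1-FGGY* with DMSO against control, missed the threshold under the block.

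Of the named members, those whose sign turned were not past the test in the main fit, except for some under the GC offset. In *L1-FGGY* with DMSO against control, the GC offset turned *MRPL41* (0.20), *MRPS34* (0.38), *MRPL10* (0.060), *MRPL1* (-0.61) and *MRPL45* (-0.12), and *MRPL47* with ML355 (0.029). *MRPL45* and *MRPL9*, both near 0 in that first comparison, had -0.024 and -0.027 with DESeq2, -0.024 and -0.027 with its size factors in edgeR, -0.048 and -0.052 with no filter, and -0.078 and -0.082 with at least 10 counts in every library, and ranged from -0.037 to 0.093 and from -0.054 to 0.095 with a library left out. Library size alone turned *MRPS16* with ML355 (-0.032) and *MRPL30* in the NVR-labelled libraries against control (-0.049). With a library left out, *MRPL12* and *MRPS12* with ML355 ranged from -0.18 to 0.43 and from -0.40 to 0.012, and *MRPL23* in the NVR-labelled libraries from -0.065 to 0.57. The cause of these changes was not tested.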
